A study of Sus scrofa with 3 samples.

Results

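The enzymes that build and finish the sugar chains of proteins were examined in pig liver. They were all gene IDs of the count tables whose pig symbol belongs to the ALG, DPM, STT3, ribophorin (RPN1 and RPN2), MGAT, B3GALT, B4GALT, B3GNT, ST3GAL, ST6GAL, ST8SIA, FUT or GALNT families. This gave 66 of 25322 gene IDs, and the ST6GAL pattern also took the related ST6GALNAC genes. The liver samples came from 3 males aged 90 days after birth, with 1 library from an Enshi black pig, 1 from a Chinese wild boar and 1 from a Large White pig. Enshi black is a Chinese local breed and Large White a European commercial breed. No treatment or genetic modification is given for any animal, and no pooling is mentioned, so each library is taken as 1 animal. With 1 library per breed, breed, animal and library cannot be told apart, no test across animals was possible, and each comparison is of libraries.

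N-glycosylation starts at the endoplasmic reticulum, where ALG enzymes assemble an oligosaccharide on the lipid dolichol and the oligosaccharyltransferase complex moves it to asparagines of new proteins. In the Golgi, MGAT enzymes add branches, B4GALT and B3GNT enzymes lengthen them, and sialyltransferases and fucosyltransferases cap or decorate them. GALNT enzymes start the other main kind of chain, the mucin-type O-glycan, on serines and threonines. Hepatocytes glycosylate most of the plasma proteins that they secrete, and sialic acid on these proteins shields them from uptake by the asialoglycoprotein receptor of the same cells. Some of the enzymes act on glycolipids rather than on proteins.

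Gene totals were 20654571 counts in Enshi black, 20215871 in Chinese wild boar and 19982627 in Large White, so that 1 count was worth 0.0464, 0.0507 and 0.051 CPM in that order. CPM is the count scaled to a common library total after adjustment of the libraries by TMM (trimmed mean of M-values), and levels of different genes are not compared because CPM is not per length. Hepatocyte markers were abundant in each library, with a summed level over 8 of 10 listed genes of 109253 CPM in Enshi black, 94771 in Chinese wild boar and 63523 in Large White. Intervals in parentheses after a ratio are 95% exact binomial intervals of counting error alone. The size rule asks that the whole interval lie at or above 2, or at or below 0.5, and a gene that meets it is said to have passed.

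Of the 66 members, 50 were expressed, which means at least 1 CPM in at least 1 library. Of these, 42 reached 1 CPM in each library, 2 in 2 libraries and 6 in only 1. The last 6, which include ST6GALNAC1, B3GNT5, B3GALT2 and B4GALT4, entered through the library where they were highest, so that counts over expressed members describe these libraries and support nothing further. Summed over all members, the level was 2668 CPM in Enshi black, 2510.4 in Chinese wild boar and 2638 in Large White. The sums were thus nearly equal, while single enzymes were not.

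**Figure D1:**
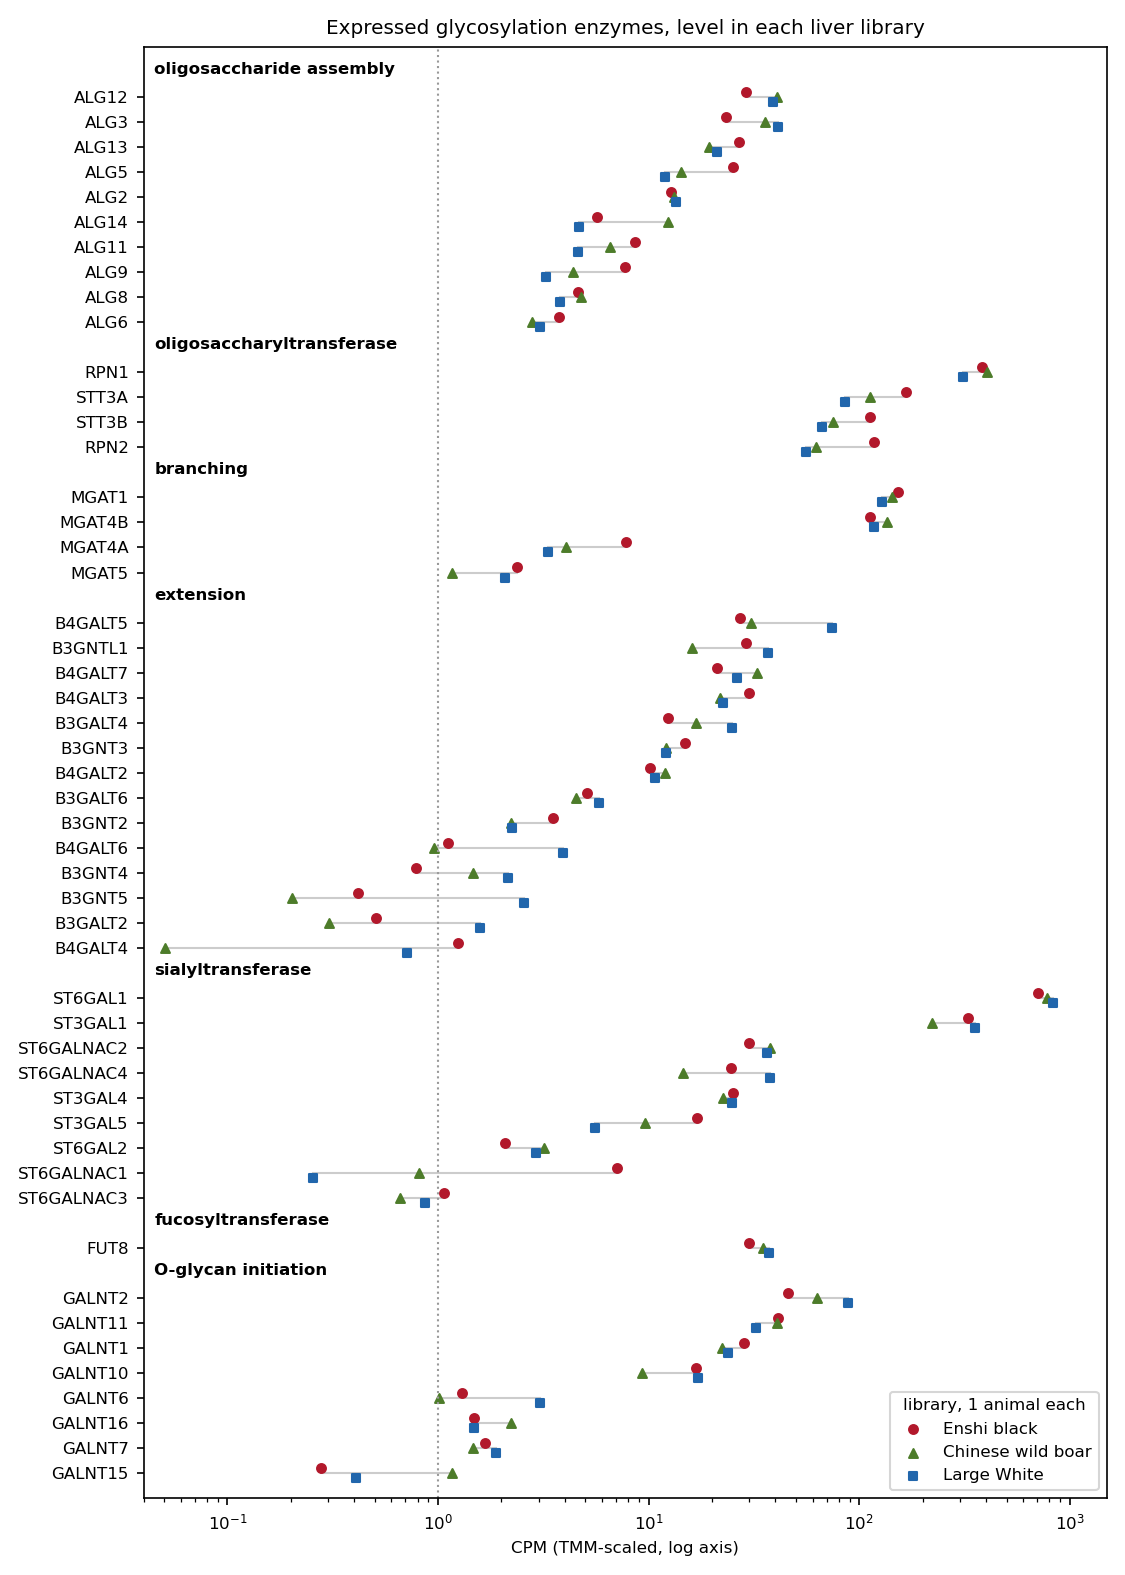
TMM-scaled level in CPM (log axis) of each of the 50 expressed members, grouped by role, with 1 point per library of 1 animal and a dotted line at 1 CPM. ST6GAL1 and RPN1 lie close together in the libraries, whereas B4GALT5 lies apart at 74.4 CPM in Large White and ST6GALNAC1 at 7.09 CPM in Enshi black.

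Between libraries, most members did not pass the size rule. For Enshi black over Large White 2 of the 50 members passed higher and 3 lower, against 4.73% and 8.36% of the 13224 expressed genes (13.1% in either direction), and the members' median log2 fold was -0.01, beside 0.01 over all expressed genes. For Chinese wild boar over Large White 1 passed higher and 7 lower, against 2.99% and 3.71% of expressed genes, with a median of -0.04 beside 0.01. For Enshi black over Chinese wild boar 2 passed higher and none lower, against 3.98% and 7.17% (11.1% in either direction), with a median of 0.24 beside 0.0. In all 10 of the 50 members passed in at least 1 comparison, a share near the 19.8% of all expressed genes. The share that passed for Chinese wild boar over Large White, 16.0% of members, lay above the 6.71% of all expressed genes, and 6 of the 7 lower members there were galactosyl- or N-acetylglucosaminyltransferases by name. Of those 7, B3GNT5 and B3GALT2 reached 1 CPM in Large White only, and B4GALT4 in Enshi black only. These entered through the library where they were highest, so this share describes these libraries and supports nothing further. The comparisons with Large White share that library, so their counts are not independent.

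The width of an interval depends on the count. Of the 22 members with a mean of at least 20 CPM, 16 had an interval inside 2-fold in all 3 comparisons, or 72.7%, against 71.6% of all expressed genes at that level. Of the 28 members under 20 CPM, 6 did, or 21.4%, against 30.2%. An interval that reaches past 2-fold in a gene of few counts does not show a difference. The differences described next concern a small number of enzymes.

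**Figure D2:**
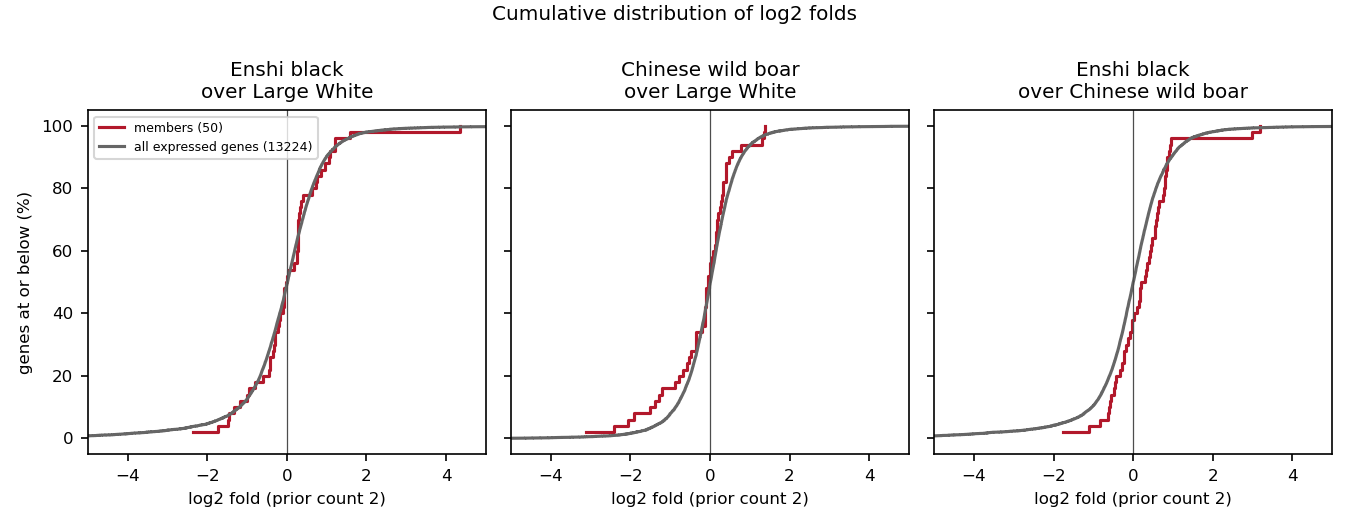
Cumulative share of genes (%) at or below each log2 fold (prior count 2) for the 50 expressed members and for all 13224 expressed genes, 1 panel per comparison. The member curve has its median at -0.01, -0.04 and 0.24 in the 3 panels, with a longer lower tail for Chinese wild boar over Large White.

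The assembly of the dolichol-linked oligosaccharide was covered by 10 ALG genes, all expressed, and their summed level was 148 CPM in Enshi black, 154 in Chinese wild boar and 146 in Large White. ALG14 (ENSSSCG00000006885), which with ALG13 forms the enzyme that adds the second N-acetylglucosamine, was the only one of the 10 that passed. It had 5.70 CPM in Enshi black, 12.4 in Chinese wild boar and 4.69 in Large White. The Chinese wild boar library stood above the other two, with a ratio of 2.64 (2.07 to 3.40) over Large White. The ratio of Enshi black to Chinese wild boar, 0.46 (0.367 to 0.573), did not pass. Its partner ALG13 had 26.8 CPM in Enshi black, 19.3 in Chinese wild boar and 21.1 in Large White, and so did not follow it.

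Of the other ALG genes, ALG12, a mannosyltransferase and the ALG gene of highest mean CPM, had 29.0 CPM in Enshi black, 40.8 in Chinese wild boar and 38.9 in Large White, with a ratio of 0.746 (0.67 to 0.83) for Enshi black over Large White. ALG5, which makes dolichol-phosphate glucose, had 25.2, 14.2 and 11.9 CPM in the same order. The mannosyltransferase ALG9 had 7.70, 4.36 and 3.27 CPM. Both were highest in Enshi black, but their ratios over Large White, 2.12 (1.82 to 2.48) for ALG5 and 2.36 (1.76 to 3.20) for ALG9, did not pass. ALG3, the first mannosyltransferase of the lumenal steps, lay the other way at 23.4 CPM in Enshi black, 35.8 in Chinese wild boar and 40.9 in Large White. ALG2 was close to level, at 12.8, 13.2 and 13.5 CPM.

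In the oligosaccharyltransferase, the catalytic subunits STT3A and STT3B and the ribophorins RPN1 and RPN2 were all expressed, and none passed in any comparison. STT3A, which glycosylates proteins as they enter the endoplasmic reticulum, had 166 CPM in Enshi black, 113 in Chinese wild boar and 85.8 in Large White. STT3B, which also acts after translation, had 112, 75.4 and 66.4 CPM in the same order. RPN2 had 117, 62.2 and 55.8 CPM. The 3 subunits shared the order of the libraries, with Enshi black highest and Large White lowest. RPN2 came closest to the size rule, with a ratio of Enshi black to Large White of 2.1 (1.96 to 2.26), and with total counts in place of TMM it passed at 2.24 (2.08 to 2.40). The ratio for STT3A was 1.94 (1.83 to 2.05).

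RPN1 departed from that order, at 382 CPM in Enshi black, 406 in Chinese wild boar and 310.2 in Large White, and its ratio of Enshi black to Large White was 1.23 (1.19 to 1.27). The share of counts within a pair of genes needs no scaling between libraries. RPN2 took 23.5% of RPN1 and RPN2 counts in Enshi black (22.7 to 24.3), 13.3% in Chinese wild boar (12.6 to 14.0) and 15.2% in Large White (14.4 to 16.1). Its interval in Enshi black did not overlap the others. STT3A took 59.8% of STT3A and STT3B counts in Enshi black (58.5 to 61.0), 60.0% in Chinese wild boar (58.4 to 61.6) and 56.4% in Large White (54.6 to 58.1). The balance of the catalytic subunits thus varied by a few percentage points, while that of the ribophorins varied more. These shares carry exact binomial (Clopper-Pearson) intervals, and the pairs were chosen after the values were seen. How often the intervals of other gene pairs lack overlap was not counted.

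Further subunits of the complex outside the symbol families came from a separate list of 8, of which 7 had a gene ID and 6 were expressed, and none of the 6 passed. DDOST, a structural subunit, had 254 CPM in Enshi black, 226 in Chinese wild boar and 212 in Large White. DAD1 had 75.3, 50.0 and 49.9 CPM, and TMEM258 had 19.5, 11.1 and 9.29 CPM, in the same order. OSTC, a subunit of the STT3A complex, was lower in Large White than in both others, at 46.9, 45.8 and 26.3 CPM. Over the 10 expressed subunits, 9 had a log2 fold above 0 for Enshi black over Large White, where 50.7% of all expressed genes did, and KRTCAP2 was the exception at 42.4, 51.6 and 47.7 CPM. For Chinese wild boar over Large White 9 of the 10 also did, against 50.6% of all expressed genes. For Enshi black over Chinese wild boar 8 did, against 50.1%. The median log2 fold of the 10 was 0.67 for Enshi black over Large White, 0.17 for Chinese wild boar over Large White and 0.47 for Enshi black over Chinese wild boar. Their summed level was 1299 CPM in Enshi black, 1105 in Chinese wild boar and 934 in Large White. The hepatocyte marker sum given above had the same order of libraries, but it was mostly ALB, at 66555, 53772 and 25234 CPM in Enshi black, Chinese wild boar and Large White. The other hepatocyte markers were mixed. HNF4A had the same order at 746, 724 and 586 CPM, and APOB was highest in Enshi black at 884, 303 and 303 CPM. AHSG was lowest in Large White at 13754, 15176 and 9072 CPM, and TF had 23613, 18179 and 20955 CPM. FGB at 605, 2351 and 2732 CPM, TTR at 2545, 3505 and 4095 and ASGR1 at 551, 759.8 and 547 ran differently. For Enshi black over Large White, 6 of the 8 had a log2 fold above 0, and the median was 0.26. The part of hepatocyte content in the oligosaccharyltransferase levels was not tested. In bulk tissue, fewer cells of a type and less RNA per cell cannot be told apart.

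**Figure D3:**
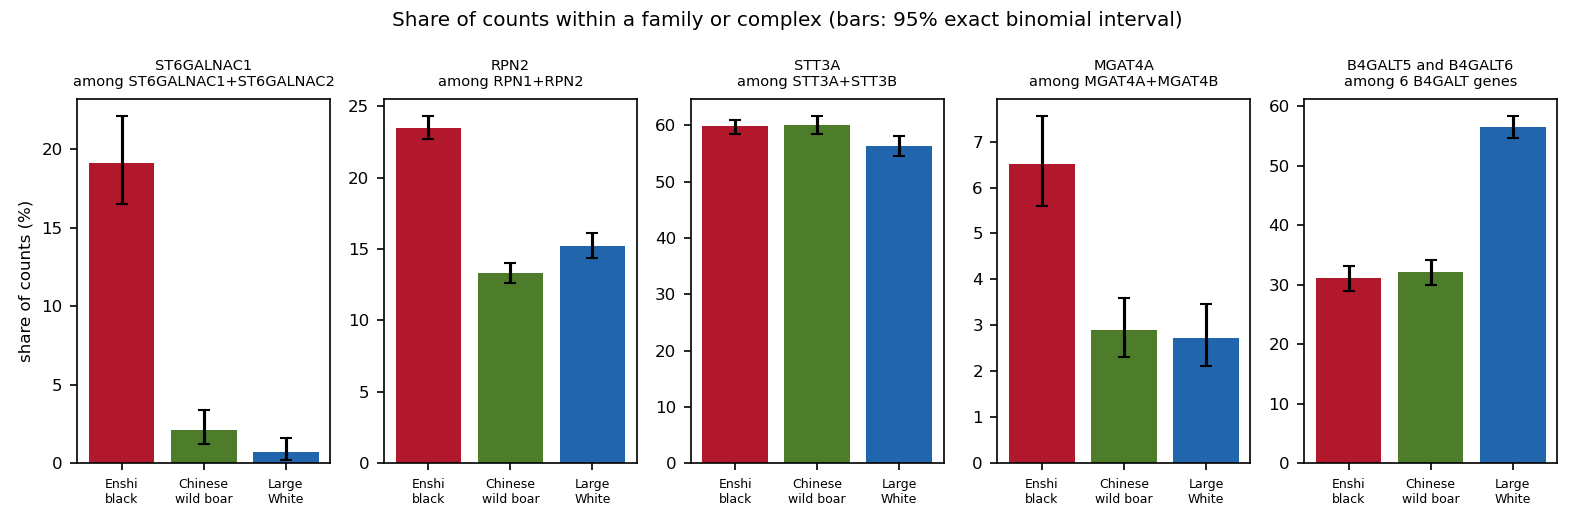
Share of counts (%) taken by the named gene within its pair or family in each library, with 95% exact binomial intervals of counting error, on axes that start at 0 and differ between panels. ST6GALNAC1 and RPN2 take their largest share in Enshi black (19.1% and 23.5%), B4GALT5 with B4GALT6 theirs in Large White (56.5%), and STT3A stays between 56.4% and 60.0%.

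Of the branching enzymes, 4 of 5 members were expressed and none passed. MGAT1, which opens the way from oligomannose to complex chains, had 153 CPM in Enshi black, 143 in Chinese wild boar and 128 in Large White, with a ratio of 1.20 (1.14 to 1.27) for Enshi black over Large White. MGAT4B, which adds a branch on the alpha-1,3 arm, had 112, 136 and 118 CPM in the same order. Neither differed by as much as 2-fold between any libraries. Its paralog MGAT4A had 7.79 CPM in Enshi black, 4.05 in Chinese wild boar and 3.32 in Large White. The ratio of MGAT4A for Enshi black over Large White, 2.35 (1.75 to 3.18), did not pass. MGAT4A took 6.52% of MGAT4A and MGAT4B counts in Enshi black (5.60 to 7.55), 2.90% in Chinese wild boar (2.31 to 3.60) and 2.73% in Large White (2.11 to 3.47). The Enshi black interval did not overlap the others. This pair too was chosen after the values were seen, and how often other gene pairs lack overlap was not counted. MGAT5, which makes the beta-1,6 branch, was low at 2.36, 1.17 and 2.09 CPM. MGAT5B had no count, which allows up to 0.139 CPM in Enshi black, 0.152 in Chinese wild boar and 0.153 in Large White (3 counts).

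The galactosyltransferases and N-acetylglucosaminyltransferases were grouped by their symbols, B3GALT, B4GALT or B3GNT. Of the 15 members 14 were expressed, with a summed level of 157 CPM in Enshi black, 152 in Chinese wild boar and 227 in Large White. Several are described below as acting on glycolipids, the proteoglycan linker or a tRNA base. The group thus does not stand for the extension of protein chains alone. For Chinese wild boar over Large White, 6 of the 14 passed lower and none higher, against 3.71% lower of all expressed genes, and the median log2 fold was -0.54. Of these 6, B3GNT5 and B3GALT2 reached 1 CPM in Large White only, and B4GALT4 in Enshi black only. For Enshi black over Large White 3 passed lower and none higher, against 8.36% lower of all expressed genes, with a median of -0.33. The 3 genes lower in both comparisons, B4GALT5, B4GALT6 and B3GNT5, thus stood apart as higher in Large White against both other libraries, which 1.68% of all expressed genes did. No member stood apart as lower in Large White, where 1.08% of all expressed genes did.

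B4GALT5 and B4GALT6 are known as the synthases of lactosylceramide, the parent of most glycosphingolipids, and B3GNT5 extends lactosylceramide to the lacto series. B4GALT5 (ENSSSCG00000007465) had 27.1 CPM in Enshi black, 30.6 in Chinese wild boar and 74.4 in Large White. The Enshi black and Chinese wild boar libraries were close to each other and both lay below Large White, with ratios of 0.364 (0.33 to 0.401) for Enshi black over Large White and 0.411 (0.373 to 0.452) for Chinese wild boar over Large White. B4GALT6 (ENSSSCG00000025005) rested on fewer reads, with 24 counts in Enshi black, 19 in Chinese wild boar and 77 in Large White, or 1.11, 0.962 and 3.93 CPM. Its ratios over Large White were 0.283 (0.171 to 0.453) for Enshi black and 0.245 (0.14 to 0.409) for Chinese wild boar. B3GNT5 (ENSSSCG00000024393) had 9 counts in Enshi black, 4 in Chinese wild boar and 50 in Large White. Its ratios over Large White were 0.164 (0.0707 to 0.336) for Enshi black and 0.0794 (0.0208 to 0.216) for Chinese wild boar.

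The other B4GALT genes did not share this pattern. B4GALT3, a galactosyltransferase of N-glycans, had 30.1 CPM in Enshi black, 21.9 in Chinese wild boar and 22.6 in Large White, and B4GALT2 had 219, 237 and 209 counts in the same order. B4GALT7, which adds the first galactose of the proteoglycan linker, had 21.1, 32.8 and 26.4 CPM. None of the 3 passed in any comparison. As a share of the counts of the 6 B4GALT genes analysed, B4GALT5 and B4GALT6 together took 31.1% in Enshi black (29.0 to 33.2), 32.1% in Chinese wild boar (30.0 to 34.2) and 56.5% in Large White (54.6 to 58.3). B4GALT4 (ENSSSCG00000011903) rested on few reads, with 27 counts in Enshi black, 1 in Chinese wild boar and 14 in Large White. It was the only member that stood apart as lower in Chinese wild boar against both others, which 0.877% of all expressed genes did, with ratios of 24.7 (4.07 to 1012) for Enshi black over Chinese wild boar and 0.0709 (0.00168 to 0.466) for Chinese wild boar over Large White. B4GALT1 was not analysed here.

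The sum of neutrophil markers, over 4 of 6 listed genes, was also highest in Large White. It was 7.0 CPM in Enshi black, 6.74 in Chinese wild boar and 36.0 in Large White. Most of it was the receptor CSF3R, at 6.03, 4.51 and 33.8 CPM, while MPO had 0.556, 1.32 and 1.33 CPM. S100A8, at 0.278, 0.76 and 0.612 CPM, and ELANE, at 0.139, 0.152 and 0.255 CPM, were below 1 CPM throughout. No matched marker was at 0. Macrophage markers summed to 1564 CPM in Enshi black, 1867 in Chinese wild boar and 2059.6 in Large White over 8 of 12 listed genes, none of them at 0. Of these, MARCO was highest in Large White at 21.4, 29.0 and 84.8 CPM, as was CSF1R at 15.6, 55.8 and 111 CPM. TIMD4 at 24.0, 24.9 and 50.9 CPM, LYZ at 1.16, 3.29 and 7.7 and CD14 at 862, 1059 and 1129 were highest there. The remaining markers were not, with C1QA at 549, 518 and 520.3 CPM, CD68 at 53.9, 70.9 and 61.0 and CLEC4F at 38.0, 107 and 94.9. Endothelial markers summed to 859.8, 539 and 1036 CPM over 6 of 10 listed genes, none at 0. The sum was highest in Large White through STAB1, at 186, 169 and 498 CPM, and the other 5 endothelial markers had a log2 fold above 0 for Enshi black over Large White. The part of these cells in the levels of B4GALT5, B4GALT6 and B3GNT5 was not tested.

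Among the B3GALT and other B3GNT genes, B3GALT2 (ENSSSCG00000010800) had 11 counts in Enshi black, 6 in Chinese wild boar and 31 in Large White, and passed as lower for Chinese wild boar over Large White at 0.192 (0.0655 to 0.468). The ratio for Enshi black over Large White, 0.322 (0.146 to 0.659), did not pass. B3GALT4, a galactosyltransferase of ganglioside synthesis, had 12.4, 16.7 and 24.8 CPM in Enshi black, Chinese wild boar and Large White, and did not pass. B3GNTL1 (ENSSSCG00000027229), named for its similarity to the family and described in human cells as acting on a modified tRNA base, had 28.9 CPM in Enshi black, 16.0 in Chinese wild boar and 36.7 in Large White. It was lowest in Chinese wild boar, with a ratio of 0.435 (0.38 to 0.497) over Large White. B3GNT2, which builds poly-N-acetyllactosamine, had 3.52, 2.23 and 2.25 CPM, and B3GNT3 had 14.9, 12.1 and 12.1 CPM. Markers of T and NK cells were also lowest in Chinese wild boar, with a sum of 162 CPM in Enshi black, 75.4 in Chinese wild boar and 164 in Large White over 10 gene IDs, of which 1 of 2 for GZMA was at 0 in Enshi black and in Chinese wild boar. All 9 expressed markers of that list had a log2 fold below 0 for Chinese wild boar over Large White and 4 passed lower, against 3.71% of all expressed genes. The part of these cells in the levels of B3GNTL1, B4GALT4 and B3GALT2 was not tested.

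Sialyltransferases had 9 of 10 members expressed and a summed level of 1142 CPM in Enshi black, 1086 in Chinese wild boar and 1289.7 in Large White. ST6GAL1, the enzyme that caps N-glycans of plasma proteins with alpha-2,6 sialic acid, had 709 CPM in Enshi black, 775 in Chinese wild boar and 828 in Large White. The ratios over Large White were 0.856 (0.837 to 0.875) for Enshi black and 0.936 (0.915 to 0.957) for Chinese wild boar, so that counting error alone was smaller than these differences but neither came near 2-fold. ST3GAL1, which sialylates core 1 O-glycans, had 327, 222 and 353 CPM and was lowest in Chinese wild boar. ST3GAL4 was close to level at 25.1, 22.6 and 24.8 CPM.

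ST3GAL5 (ENSSSCG00000008227) makes the ganglioside GM3 from lactosylceramide, and so acts on the product of B4GALT5 and B4GALT6. It had 16.9 CPM in Enshi black, 9.57 in Chinese wild boar and 5.56 in Large White. The order of the libraries was opposite to that of B4GALT5. The ratio for Enshi black over Large White was 3.03 (2.44 to 3.79) and passed, while those for Chinese wild boar over Large White, 1.72 (1.35 to 2.20), and for Enshi black over Chinese wild boar, 1.76 (1.47 to 2.11), did not. The sum of stellate cell and fibroblast markers had the same order of libraries as ST3GAL5. It was 1032, 553 and 314 CPM over 8 of 10 listed genes, with LUM at 0 counts in Large White. Most of it was COL3A1, at 838, 384 and 232 CPM. Of the expressed markers, DES at 14.2, 37.9 and 20.9 CPM and PDGFRB at 15.9, 18.7 and 17.9 CPM alone did not share the order. For Enshi black over Large White 5 of the 7 expressed markers passed higher and none lower, against 4.73% higher of all expressed genes, and the part of these cells in the level of ST3GAL5 was not tested.

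The ST6GALNAC enzymes add sialic acid to N-acetylgalactosamine, and ST6GALNAC1 makes the sialyl-Tn antigen. ST6GALNAC1 (ENSSSCG00000017172) had 153 counts in Enshi black, 16 in Chinese wild boar and 5 in Large White, or 7.09, 0.811 and 0.255 CPM. It was the only member that stood apart as higher in Enshi black against both others, which 1.7% of all expressed genes did, and no member stood apart as lower there, which 4.61% of all expressed genes did. The ratio of Enshi black to Large White was 27.8 (11.7 to 86.9), and that of Enshi black to Chinese wild boar was 8.75 (5.22 to 15.7). Chinese wild boar over Large White, at 3.18 (1.11 to 11.1), did not pass. Cholangiocyte markers summed to 242 CPM in Enshi black, 274 in Chinese wild boar and 256 in Large White over 6 of 9 listed genes, mostly CLDN4 at 208, 245 and 222 CPM. None of them passed higher for Enshi black over Large White, and SPP1 did for Enshi black over Chinese wild boar, at 2.41 (2.02 to 2.88). The stellate cell and fibroblast sums given for ST3GAL5 ran in the same order as ST6GALNAC1, and their part in its level was not tested.

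ST6GALNAC2 is the next protein-coding gene to ST6GALNAC1 on the chromosome in the RefSeq annotation of Sscrofa11.1, a later assembly than the one named for the counts. It had 30.0 CPM in Enshi black, 37.6 in Chinese wild boar and 36.6 in Large White, and did not pass. ST6GALNAC1 took 19.1% of the counts of the neighbouring genes in Enshi black (16.5 to 22.1), 2.11% in Chinese wild boar (1.21 to 3.40) and 0.692% in Large White (0.225 to 1.61). ST6GALNAC4 (ENSSSCG00000005628), which acts on sialylated core 1 chains, had 24.7 CPM in Enshi black, 14.5 in Chinese wild boar and 37.7 in Large White. Its ratio for Chinese wild boar over Large White, 0.386 (0.335 to 0.442), passed, and the ratio for Enshi black over Large White, 0.655 (0.585 to 0.734), did not. ST6GALNAC4 and ST3GAL1 were lowest in the same library as the T and NK cell markers, whose part in these levels was not tested. ST6GALNAC3 and ST6GAL2 were at most 1.07 and 3.19 CPM in any library, and ST8SIA6 had no count.

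**Figure D4:**
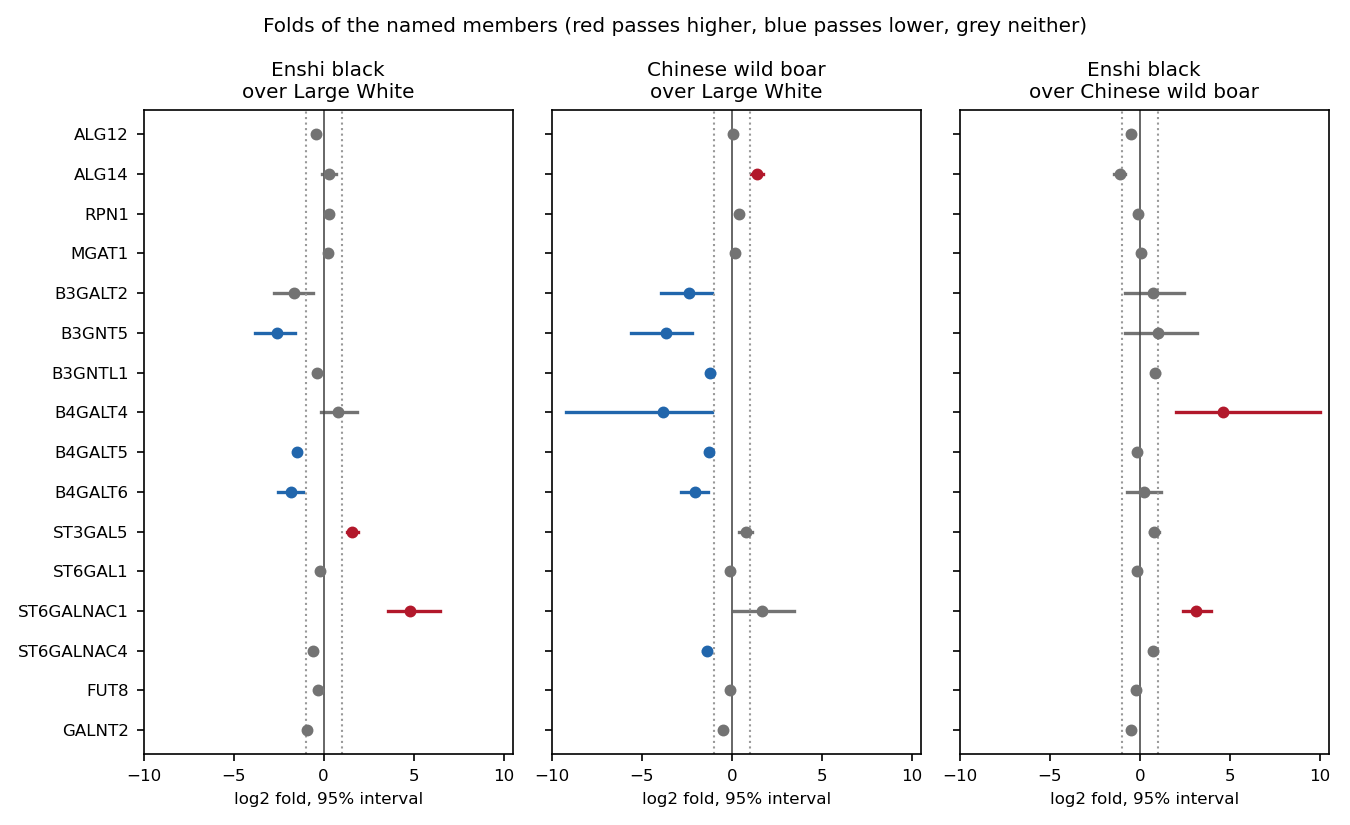
Log2 fold with 95% exact binomial interval for the 10 members that passed the size rule in at least 1 comparison and the member of highest mean CPM of each role, in 3 comparisons, with dotted lines at 2-fold. Large White lies above both other libraries for B4GALT5, B4GALT6 and B3GNT5, and the intervals of B4GALT4 are wide because Chinese wild boar had 1 count.

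FUT8, which adds the core fucose of N-glycans, was the only expressed member of 3 fucosyltransferases and had 30.0 CPM in Enshi black, 35.0 in Chinese wild boar and 37.2 in Large White. Its ratio of 0.805 (0.723 to 0.897) for Enshi black over Large White did not pass, nor did the other comparisons. FUT2 had 3, 0 and 2 counts, and FUT9 had none.

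GALNT enzymes, which start O-glycans, had 8 of 19 members expressed, and none of them passed in any comparison. GALNT2, the member of highest mean CPM, had 46.0 CPM in Enshi black, 63.1 in Chinese wild boar and 88.0 in Large White. It came near the size rule for Enshi black over Large White, at 0.522 (0.482 to 0.565). GALNT1 had 28.5, 22.3 and 23.9 CPM, and GALNT11, which glycosylates lipoprotein receptors, had 41.3, 40.8 and 32.4 CPM. GALNT10 had 16.8, 9.27 and 17.1 CPM and was lowest in Chinese wild boar, as were the T and NK cell markers, whose part in its level was not tested. GALNT6 was highest in Large White, at 1.30, 1.01 and 3.06 CPM, and did not pass. The remaining 11 GALNT members were below 1 CPM in each library. GALNT18 came closest to that limit, with 20 counts in Enshi black, 10 in Chinese wild boar and 1 in Large White.

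In all 16 members were below 1 CPM in each library, of which 7 had no count in any and 9 had up to 20 counts in a library. The members without a count were MGAT5B, ST8SIA6, FUT9, GALNT8, GALNT13, GALNT14 and GALNTL6. None of the expressed members had 3 counts or fewer in Enshi black or in Large White, and B4GALT4 alone did in Chinese wild boar. A further 27 gene IDs with symbols of these families, among them B4GALT1, MGAT2, MGAT3, DPM1 and FUT4, were not analysed here, so the sums by role do not cover whole families.

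Steps that precede and follow these enzymes were taken from 7 lists of 112 symbols, of which 85 gene IDs were matched and 82 were expressed. For Enshi black over Large White 3 passed higher and 2 lower, for Chinese wild boar over Large White 3 higher and 1 lower, and for Enshi black over Chinese wild boar 1 higher and 3 lower. In either direction the shares were 6.10%, 4.88% and 4.88%, below the 13.1%, 6.71% and 11.1% of all expressed genes. Among 4 genes of dolichol supply, MPDU1, which is needed to use dolichol-linked mannose and glucose, had 18.4 CPM in Enshi black, 21.1 in Chinese wild boar and 4.85 in Large White. It was lowest in Large White, with ratios of 3.79 (3.02 to 4.79) for Enshi black over Large White and 4.35 (3.47 to 5.49) for Chinese wild boar over Large White.

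Among 18 expressed nucleotide sugar genes, PMM1 and UGP2 passed in at least 1 comparison. PMM1, a phosphomannomutase, had 14.7 CPM in Enshi black, 59.7 in Chinese wild boar and 10.1 in Large White, and stood apart as higher in Chinese wild boar, which 1.2% of all expressed genes did, with a ratio over Large White of 5.91 (5.08 to 6.90). UGP2, which makes UDP-glucose for glycogen as well as for glycans, had 198, 139.7 and 85.6 CPM, with a ratio of Enshi black to Large White of 2.31 (2.18 to 2.45). UGP2 was thus highest in Enshi black, and PMM1 in Chinese wild boar.

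In the Golgi and trimming lists, COG7, a subunit of a tethering complex that holds Golgi enzymes in place, had 10.8 CPM in Enshi black, 28.2 in Chinese wild boar and 28.3 in Large White. Its ratios were 0.382 (0.327 to 0.446) for Enshi black over Large White and 0.384 (0.328 to 0.448) for Enshi black over Chinese wild boar. The GDP-fucose transporter SLC35C1 had 1.95, 6.33 and 4.64 CPM and passed lower for Enshi black over Chinese wild boar at 0.308 (0.211 to 0.439). Both were lowest in Enshi black. The Golgi mannosidase MAN2A1, which trims the chain after MGAT1, was highest there, at 112, 49.4 and 54.8 CPM, and passed over Chinese wild boar at 2.27 (2.11 to 2.45). No other gene of the Golgi list (12 expressed) or of the trimming and folding list (18 expressed) passed.

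In the O-mannose and O-glycan extension list, 1 of 10 expressed genes passed. POMT1, which starts O-mannose chains, had 29.5 CPM in Enshi black, 29.2 in Chinese wild boar and 142 in Large White. Like B4GALT5 it stood apart in Large White, with ratios of 0.209 (0.191 to 0.227) for Enshi black and 0.206 (0.188 to 0.226) for Chinese wild boar over Large White. Its partner POMT2 had 7.42, 6.64 and 7.14 CPM and did not follow it. In the list of lysosomal deglycosylation and lectin receptors, 1 of 14 expressed genes passed. The lysosomal mannosidase MANBA had 11.5 CPM in Enshi black, 5.62 in Chinese wild boar and 4.39 in Large White, with a ratio of Enshi black to Large White of 2.62 (2.04 to 3.39). ASGR1, a subunit of the asialoglycoprotein receptor, had 551, 759.8 and 547 CPM and did not pass.

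**Figure D5:**
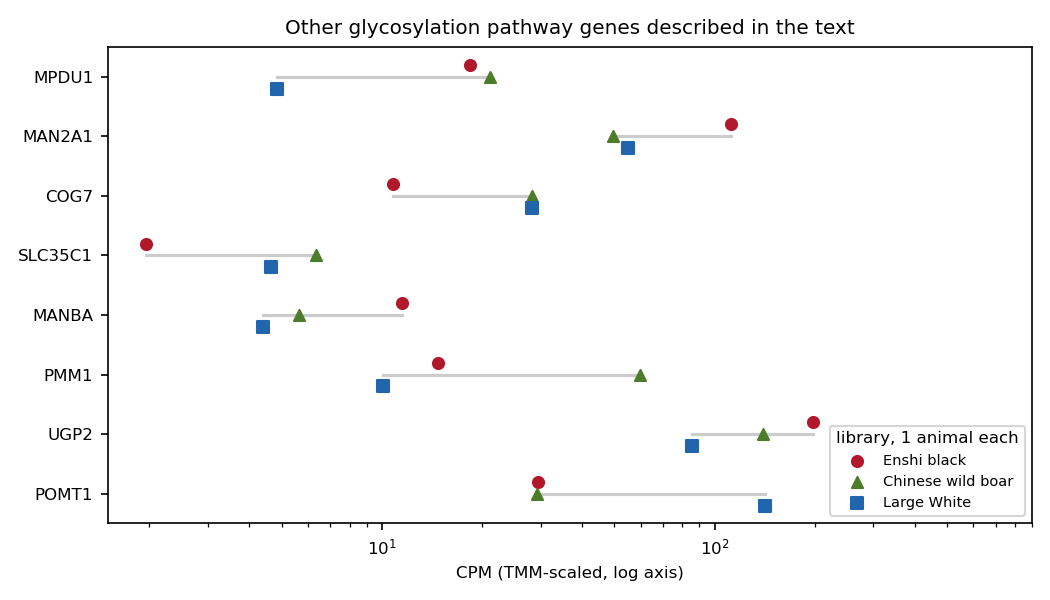
TMM-scaled level in CPM (log axis) of 8 other pathway genes that passed the size rule in at least 1 comparison, with 1 point per library of 1 animal. POMT1 lies apart at 142 CPM in Large White, PMM1 at 59.7 CPM in Chinese wild boar and COG7 at 10.8 CPM in Enshi black.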

How the data were processed

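Paired-end liver RNA libraries were counted per gene by the authors, and the deposited files hold these whole-number counts without normalization. Per the submitters' processing notes, the build was Sscrofa10.2 and the tools included HTSeq 0.6.1, TopHat2 2.1.0 and edgeR 3.16.3. Strandedness, the annotation release and the treatment of multiply aligned reads were not given in the sources used here, so overlapping genes and genes with close copies are uncertain. The 5 rows of each file that name no gene were left out, and of gene, no-feature and ambiguous counts together the no-feature share was 18.9% to 22.0% and the ambiguous share 1.89% to 2.49%.

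Symbols were matched by gene ID for 11804 of 25322 IDs. Counts were scaled with TMM over all IDs (edgeR 4.0.16, R 4.3.3). Ratios carry Clopper-Pearson intervals (scipy 1.17.1, Python 3.11.15), and figures were drawn with matplotlib 3.10.9. The expression filter was 1 CPM in any library. Log2 folds used a prior count of 2. The calculation was tested on simulated data. No molecular identifiers are described, so intervals and the limit of 3 counts cover counting error only. No p-value is given, since each breed has 1 library.

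Members and lists were chosen with earlier results of these data known. The text names expressed members, gives ratios for those that passed and for the member of highest mean CPM of each role, and names the pathway genes that passed, except 1 that is not reported here but is in the counts. Ratios of ALG5, ALG9 and other members that did not pass, the further oligosaccharyltransferase subunits, GALNT18, the gene pairs used for shares, POMT2, ASGR1 and the single cell type markers were added after their values were seen. DESeq2 1.42.0 size factors, total counts, other filters, other size limits, another prior count and an assumed variation between animals were tried. No sequences or coordinates were used.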

Additional observations from a re-analysis of the deposited data

How the results depend on the processing

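With DESeq2 size factors every count of members or pathway genes past the size rule and each median log2 fold kept its value to within 1.5 times or 0.1. All 48 ratios of the 16 members with a ratio in each comparison kept their call under DESeq2 size factors and under total counts, and none that passed changed direction. The RPN1 ratio for Enshi black over Chinese wild boar, 0.94 with TMM, was 1 with total counts. Total counts moved the median of all expressed genes to 0.1 for Enshi black over either other library, and the members' median for Enshi black over Chinese wild boar to 0.34. They raised the pathway genes higher in Enshi black to 5 over Large White and to 2 over Chinese wild boar. Without an expression filter, 3 members were higher for Enshi black over Large White, GALNT18 being added.

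With a filter of 10 CPM, 30 members were left. For Enshi black over Large White 1 was then higher and 1 lower, for Chinese wild boar over Large White 3 were lower, and for Enshi black over Chinese wild boar 0 were higher, with a median of 0.06. The shares of all expressed genes that passed were not counted under other scalings or filters, so these counts have no background beside them.

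A near bound of 1.5 gave 8 members higher and 8 lower for Enshi black over Large White, and 6 higher and 2 lower for Enshi black over Chinese wild boar. Pathway genes then numbered 12 higher and 5 lower, 9 higher and 3 lower for Chinese wild boar over Large White, and 8 higher and 6 lower for Enshi black over Chinese wild boar. A near bound of 4 left ST6GALNAC1 as the 1 member higher and 0 lower for Enshi black over Large White, and B3GNT5 as 1 lower and 0 higher for Chinese wild boar over Large White. Of pathway genes it left 0 higher and 1 lower (POMT1) for Enshi black over Large White, 1 higher (PMM1) and 1 lower (POMT1) for Chinese wild boar over Large White, and 0 in either direction for Enshi black over Chinese wild boar. Adding an assumed animal-to-animal coefficient of variation of 0.4 left the same members (1 higher and 0 lower, then 0 higher and 1 lower) and 0 pathway genes in any comparison. Under either setting 11 member calls were lost and ST6GALNAC1 and B4GALT4 stayed higher for Enshi black over Chinese wild boar. The stricter limits lose calls by their construction. How many of all expressed genes passed at a near bound of 1.5 or 4, or with the assumed variation, was not counted. The counts at these settings thus have no background beside them and are not read as a result about the members or pathway genes. The alternatives for pathway genes were chosen after seeing the data.

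Depth limits B3GNT5, B3GALT2, B4GALT4, B4GALT6 and ST6GALNAC1, which had few counts in at least 1 library. No paired analysis was possible because each breed has 1 library and the labels give no replicate numbers.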
